A study of Mus musculus with 12 samples.

Results

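A set of 26 catalogue probes was bright in colorectal tissue at 0 and 1 weeks of a colitis and tumour model made with azoxymethane (AOM) and dextran sulfate sodium (DSS), and dimmer at both 2 and 10 weeks. They were 26 of 51691 catalogue probes, whose IDs start with A_, on arrays that held 145548 probes besides controls. Members were chosen by the deposited log2 values, read as means over the 3 arrays of each time point. A member differed by no more than 0.5 between 1 and 0 weeks, and its 2-week and 10-week means were each at least 1.5 below both earlier means. In addition every later array lay below every earlier one, and the 0-week mean was at least 6. The falls from 0 and 1 weeks to 2 and 10 weeks therefore chose the members, and they are given as a description with no test. The choice did not set 10 against 2 weeks, although it bounded both from above, so a probe that rose past the limit at 10 weeks could not be a member. It also did not use the probe sequences or the order of arrays within a time point, although each array entered its means and limits.

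All tissue came from male C57BL/6 mice. The 0-week arrays held RNA of untreated animals by their titles, which the labels call normal tissue, although the source names list AOM/DSS there too. The 1-week group had received an intraperitoneal injection of AOM, at 10 mg/kg, and no DSS. Mice of the 2-week and 10-week groups had received the same injection and, from day 7, drinking water with 2% DSS for 7 days and then plain water for 14 days, in a schedule of 3 cycles. At 2 weeks the schedule allows for the first DSS course only. The labels give the diagnosis colitis at 1 and 2 weeks and colorectal tumour at 10 weeks. The labels do not say whether arrays of a group came from separate animals, so p-values measure the spread between arrays, which may be technical. Ages of the mice are not given in the sources used here.

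AOM is a carcinogen that is activated in the body and alkylates DNA. DSS is a sulfated polysaccharide that injures the colonic epithelium, so that cells die, immune cells enter and the crypts are rebuilt from surviving cells. Repeated injury after the carcinogen gives tumours mostly in the distal colon, and such tumours hold fewer mature absorptive and secretory cells than healthy mucosa. On a 1-colour array, labelled RNA binds to fixed probes, here 60 bases long, and the brightness of a spot follows the amount of matching RNA. In bulk tissue, fewer cells of a type and less RNA per cell cannot be told apart.

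The scanner files carry no gene name, description or position for these probes, so the members are known by ID and sequence only. Of the 26 members, 0 shared 20 or more bases with the 32851 RefSeq promoter windows or the 2743 RefSeq microRNA sequences of the mouse genome (GRCm38.p6). The pathway lists and cell type markers drawn up for colon could therefore not be applied, and the labelled tissue was not checked against markers here.

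The 3 members with the largest falls are shown whole, since the set is led by them. They are written 5′ to 3′ as the scanner files give them, and their genome position is not given in the sources used here.
A_55_P2092633: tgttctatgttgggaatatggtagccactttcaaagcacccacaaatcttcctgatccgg
A_66_P109060: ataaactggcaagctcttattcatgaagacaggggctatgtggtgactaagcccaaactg
A_55_P2057189: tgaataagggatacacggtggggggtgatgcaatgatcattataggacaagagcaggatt
These 3 probes are different stretches of sequence. Scored with 1 for a match and 2 off for a mismatch, the best ungapped match between any 2 of them reached 6, which was also the median over the 325 pairs of members.

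Another 3 members resemble each other. The following stretches are the best match between A_66_P138990 and A_51_P150489, with identical bases in capitals, from base 3 to 32 and from base 21 to 50 of the probes.
A_66_P138990: GTCCTGGATACATTTGAtATATTGCACCAT
A_51_P150489: GTCCTGGATACATTTGAgATATTGCACCAT
They agree at 29 of 30 bases. A different part of A_66_P138990, from base 32 to 60, matched bases 19 to 47 of A_55_P2164932 at 27 of 29 positions, again with identical bases in capitals.
A_66_P138990: TGCATGTTTTAGGCcaGTGGGAATAAAGA
A_55_P2164932: TGCATGTTTTAGGCtgGTGGGAATAAAGA
Of the 325 member pairs these 2 scored at least 18, and no other pair scored above 10. Whether the 3 probes bind RNA of 1 gene was not tested. They enter the numbers given here as 3 members, so those numbers count probes and not separate measurements.

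One further sequence is shown for its palindrome, a run equal to its own reverse complement, the longest among the 26 members. Its probe was also the 1 member called higher at 10 than at 2 weeks. The first 30 bases of A_66_P134474 open with this palindrome of 16 bases (in capitals).
A_66_P134474: ACAGACCTAGGTCTGTtttctttttatctc
A palindrome of 16 bases or more occurred in 46 of 51691 catalogue probes, or 0.089%. Because this probe was picked from all members for its palindrome, nothing is read from that share. GC content of the members ran from 28.3% to 55.0% with a median of 45.0%, against a median of 41.7% over all catalogue probes. The letters AATAAA, the usual polyadenylation signal, stood on the probe's own strand in 4 of 26 members (15.4%) and 10.3% of catalogue probes, and on the opposite strand in 0 members (0%) and 3.96% of catalogue probes. Among the 4 were A_55_P2164932 and A_66_P138990, whose matching stretches both hold these letters.

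Detection was high at the start and fell only in part. All 26 members were well above background, a flag that the scanner software sets per spot, on every array at 0 and 1 weeks. The criteria on 0-week level and on 1 week favoured this, so it is a description. At 2 weeks 19 of them were well above background on all 3 arrays and 7 on 1 or 2 arrays. At 10 weeks 21 were so on all 3 arrays, 3 on some and 2 on none. The data thus show a lowered and not an absent signal for most members, and the set is called lowered here. Without the criterion on 0-week level 42 catalogue probes would have met the rule, without that on overlap 29, without that on 1 week 36, and without the size of the fall 695. The members just inside the size limit were A_52_P286360, A_66_P106948 and A_66_P126913, with smallest falls of 1.51, 1.54 and 1.55, and just outside were A_55_P2172624 at 1.497, A_51_P380078 at 1.46 and A_52_P186262 at 1.46. Among 93857 custom-design probes only 2 met the same criteria, or 0.0187% of those with a 0-week mean of at least 6, against 0.124% for catalogue probes.

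On the deposited log2 scale the 0-week means of the members ran from 6.16 to 16.38 with a median of 10.38. Over the 20972 catalogue probes with a 0-week mean of at least 6 the median was 8.20. The median member level was 10.35 at 1 week, 7.38 at 2 weeks and 6.80 at 10 weeks, a fall that the rule required. For those catalogue probes the median was between 8.15 and 8.24 at all time points. Every deposited column has the same quantiles, so a steady median was largely set by the processing. Falls against 0 weeks ranged from 3.03-fold to 232-fold at 2 weeks (median 4.80) and from 2.99-fold to 195-fold at 10 weeks (median 8.84, or 8.55 with the 2 members not detected at 10 weeks at their lower bounds). At 2 weeks 4 members had fallen by 122-fold or more and the next by 23.2-fold, so most of the set moved far less than its leaders. Of the 24 members well above background on any 10-week array, the fall was larger at 10 than at 2 weeks in 16 and smaller in 8. At 1 week 13 members lay above and 13 below their 0-week mean, between -0.38 and 0.46.

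Probe A_55_P2092633 was the brightest member at the start. Its deposited log2 values were 16.20, 16.53 and 16.41 on the 0-week arrays and 16.67, 15.98 and 16.53 on the 1-week arrays. After DSS they were 7.24, 10.93 and 7.66 at 2 weeks, and the 10-week arrays gave 8.25, 9.14 and 8.95. All later arrays lie far below the earlier ones, and the second 2-week array stands well above the other two. Mean levels fell 218-fold by 2 weeks and 195-fold by 10 weeks.

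Probe A_66_P109060 read 13.46, 14.08 and 13.92 before treatment and 14.15, 13.50 and 14.22 after AOM alone. It then read 4.16, 8.47 and 5.25 at 2 weeks, where 1 array was not well above background, and 5.64, 7.98 and 7.32 in the 10-week tumours. Again the second 2-week array was the highest of its group. The mean fell 232-fold at 2 weeks and 115-fold at 10 weeks.

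Values of A_55_P2057189 were 13.27, 13.87 and 14.04 without treatment and 14.37, 13.76 and 14.44 after AOM. They were 5.74, 8.58 and 5.93 at 2 weeks and 6.12, 6.91 and 6.84 at 10 weeks. It had the same high second array at 2 weeks, and its mean fell 126-fold and 137-fold.

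Although they share no matching stretch, these 3 probes deviated together, mostly through the 2-week arrays. After the mean of each group was taken away, their deviations over the 12 arrays correlated at 0.949 to 0.980. The median over all 325 member pairs was 0.33 and the range -0.408 to 0.993. The 2-week arrays, with the high second array, weigh most in these correlations. At the other time points the SDs of the 3 probes were at most 0.47, 1.21 and 0.44. The probes were read on the same arrays from the same RNA, so this describes these libraries. Their SDs at 2 weeks, 2.02, 2.24 and 1.59, were far above the median of 0.152 for catalogue probes with a 0-week mean of at least 6. Those catalogue probes were not matched to them for 2-week level or size of fall.

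The comparison of 10 with 2 weeks was tested with limma over 62388 probes, using processed signals scaled by each array's 75th percentile. Every member passed the filter on dim probes, and each did so on its 0-week and 1-week arrays alone. Of the 26 members, 4 were lower and 1 was higher at 10 weeks at an adjusted p below 0.05. Over all tested probes 7.56% were called lower, 23.4% higher and 31.0% either way. Since the choice bounded how far a member could rise, these shares are given as background, and nothing is read from the members' counts against them. The median difference was -0.41 over the members and 0.27 over all tested probes. These counts move with the scaling. In the deposited values the median of all tested probes was 0.01, 9 members were lower and 1 higher, and 11.2% of all tested probes were called lower and 9.51% higher. With the percentile taken over all probes that median was -0.14, 9 members were lower and 1 higher, and the background was 22.1% lower and 9.27% higher. The 4 falls and the rise described next were called under all 6 scalings. Falls numbered 2 when the second or the third 2-week array or the second 10-week array was left out. Over all tested probes 5.25%, 4.07% and 4.84% were called lower in those fits, in that order. Rises numbered 5 without the second 2-week array, where 20.1% of all tested probes were called higher. They numbered 2 without 2-week replicate 3, the first or second 0-week array, or the second array after AOM. In those fits 14.0% to 24.9% of all tested probes were called higher. All 2-week arrays lay on 1 slide of their own and all 10-week arrays on another, which was also scanned on a separate day. Slide, scan day and time point therefore cannot be told apart in this comparison. Arrays at 0 weeks lay on slides 1 and 2 and those at 1 week on slides 3 and 4. Slide is thus also tied to time point in the falls from 0 and 1 weeks, and scan day in those at 10 weeks.

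The rise was that of A_66_P134474, the probe with the palindrome. Its deposited values were 15.08, 16.45 and 15.86 before treatment and 16.77, 15.45 and 16.45 after AOM. They were 7.22, 8.32 and 11.05 at 2 weeks and 12.68, 12.08 and 12.52 at 10 weeks. Every 10-week array lay above every 2-week array and below every earlier array, and the 2-week arrays were widely spread. On the scaled signal the rise from 2 to 10 weeks was 3.43 on the log2 scale (SE 0.78, n = 3 arrays a group; limma adjusted p = 0.00966). It was called in all 23 other settings, with differences between 2.57 and 4.55. Against 0 weeks its mean had fallen 122-fold at 2 weeks and was still 10.3-fold lower at 10 weeks.

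A second bright probe, A_55_P2015878, likewise had a 10-week mean between its 2-week mean and both earlier means, without passing the threshold. It read 10.93, 12.73 and 11.41 in untreated tissue and 12.05, 10.87 and 11.94 after AOM. The 2-week arrays gave 8.34, 8.83 and 9.09 and the 10-week arrays 9.91, 10.21 and 9.81. The 10-week arrays did not overlap with the 2-week arrays, which on the scaled signal was so for 2 members in this direction and 37.5% of all tested probes. The difference was 1.19 (SE 0.44; limma adjusted p = 0.0596; 95% interval 0.22 to 2.15), and limma adjusted p ran from 0.0144 to 0.174 over the other settings, 7 of which called it.

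The 4 falls between 2 and 10 weeks came from probes that had already dropped by 2 weeks. Probe A_66_P126913 had values of 11.59, 11.88 and 11.82 at the start and 11.35, 11.68 and 11.26 after AOM. It read 9.19, 10.74 and 9.70 at 2 weeks and 7.31, 8.71 and 8.23 at 10 weeks. Every 2-week array lay below the earlier ones, and every 10-week array lay lower again. The further fall was -1.76 on the scaled log2 signal (SE 0.40; limma adjusted p = 0.0089), and it was called under all 23 other settings, with adjusted p up to 0.0343.

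Probe A_51_P246924 ranked the arrays in the same order as A_66_P126913 at 2 and 10 weeks, though not at 0 and 1 weeks. Untreated arrays read 10.33, 10.68 and 10.72 and those after AOM 10.35, 10.82 and 10.41. Its 2-week values were 8.28, 9.77 and 8.69 and its 10-week values 6.49, 7.82 and 7.40. Within-group deviations of this pair correlated at 0.993 over 12 arrays, the highest of all member pairs, and levels at 0.997. The 2-week and 10-week arrays, with SDs of 0.68 to 0.79 against 0.15 to 0.26 earlier, weigh most in the deviations. The difference between 10 and 2 weeks was -1.56 (SE 0.39; limma adjusted p = 0.0131), and every 10-week array was below every 2-week array. Without 10-week replicate 1 the limma adjusted p was 0.0511.

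For A_51_P335460 the untreated arrays gave 10.04, 10.32 and 10.18 and the AOM arrays 10.34, 9.98 and 10.18. Values were 7.57, 8.94 and 8.42 at 2 weeks and 6.86, 5.43 and 7.50 at 10 weeks. The early arrays were tight, and the 2-week and 10-week arrays met at 7.57 and 7.50 and overlapped once scaled by the percentile. The further fall of -1.56 (SE 0.46; limma adjusted p = 0.0262) did not pass without 2-week replicate 2, 2-week replicate 3 or 10-week replicate 2, where limma adjusted p was 0.0855, 0.0753 and 0.0697. Without 10-week replicate 2 the difference was -0.99. It also missed in a fit of only the 2-week and 10-week arrays (limma adjusted p = 0.0776) and with no filter on dim probes (limma adjusted p = 0.0527).

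Probe A_52_P286360, the member nearest to the size limit, read 6.75, 6.55 and 6.72 without treatment and 6.29, 6.84 and 6.57 after AOM. It read 4.26, 5.56 and 5.34 at 2 weeks and 3.18, 1.48 and 3.54 at 10 weeks, where it was well above background on 1 of the 3 arrays. The difference of -1.75 (SE 0.54; limma adjusted p = 0.0321) failed the threshold without 2-week replicate 2, 2-week replicate 3 or 10-week replicate 2, with limma adjusted p of 0.0988, 0.096 and 0.0698. The same pair of other settings as for A_51_P335460 lost it too, at limma adjusted p of 0.0899 and 0.0638. Without 10-week replicate 2 the difference was -1.01, and with normexp background correction it was -0.58 (limma adjusted p = 0.0114). On the scaled signal every 10-week array lay below every 2-week array for 6 members, against 13.5% of all tested probes. These included A_51_P391159, whose deposited values overlapped, and not A_51_P335460.

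The 3 members of related sequence were bright throughout and fell moderately. Probe A_51_P150489 read 15.34, 15.59 and 15.25 at the start, 16.10, 14.77 and 15.43 after AOM, 12.69, 13.54 and 13.51 at 2 weeks, then 13.05, 12.06 and 13.13 at 10 weeks. Means of A_55_P2164932 were 15.16 ± 0.15 (SD, n = 3) before treatment, 15.11 ± 0.69 after AOM, 12.87 ± 0.51 at 2 weeks and 12.09 ± 0.83 in tumours. For A_66_P138990 the same means were 14.45 ± 0.40, 14.54 ± 0.80, 11.95 ± 0.45 and 11.75 ± 0.41 (SD, n = 3). All 3 thus kept a strong signal after DSS, with falls of 4.43-fold to 5.65-fold at 2 weeks and 6.27-fold to 8.39-fold at 10 weeks.

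Their deviations within groups correlated at 0.863 to 0.986. A pair of dimmer probes with no matching sequence, A_55_P2011101 and A_55_P2722677, moved with them, and over all 10 pairs of these 5 probes the range was again 0.863 to 0.986. The mean of A_55_P2011101 was 9.79 ± 0.11 (SD, n = 3) in untreated tissue, 10.09 ± 0.94 after AOM, 7.50 ± 0.42 at 2 weeks and 7.12 ± 0.65 in tumours. For A_55_P2722677 these means were 8.20 ± 0.41, 8.01 ± 0.60, 6.11 ± 0.78 and 4.69 ± 0.64 (SD, n = 3). In all 5 the first 1-week array was the highest and the second the lowest of that group. This order was not particular to them, since A_66_P134474 and A_55_P2015878 had it too. Over the 26 members the first 1-week array was highest in 16 and the second lowest in 14. The grouping was made after these values were seen. None of the 5 was called between 10 and 2 weeks at a limma adjusted p below 0.05 with the scaling used for the test. The lowest adjusted p among them was that of A_55_P2164932, at 0.0764 in limma, with an interval of -1.88 to -0.13. With the percentile over all probes 3 of the 5 were called lower, A_55_P2164932, A_51_P150489 and A_55_P2722677, at limma adjusted p of 0.0143, 0.0171 and 0.0337. Deposited values and quantile normalization also called A_55_P2722677 (limma adjusted p = 0.0462 and 0.0449), normexp called A_51_P150489 (limma adjusted p = 0.0393), and slide as a random block A_55_P2164932 (limma adjusted p = 0.0417). Without 2-week replicate 1, A_55_P2722677 was called too (limma adjusted p = 0.0352).

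Besides A_66_P109060, a group of 6 members was not well above background on every array at 2 weeks. Probe A_51_P257951 read 8.29, 8.78 and 8.54 without treatment and 8.59, 8.34 and 8.57 after AOM. The values were 3.78, 4.82 and 3.40 at 2 weeks and 3.30, 1.89 and 3.03 at 10 weeks. It was not well above background on any 10-week array and on only 1 array at 2 weeks, and its level at 0 weeks was at least 27.3-fold higher than at 10 weeks. This bound sets the 0-week mean against the lowest signal that was well above background on each 10-week array, or the probe's own signal where higher. The other probe not detected at 10 weeks, A_51_P173107, had a mean of 6.16 ± 0.40 (SD, n = 3) at 0 weeks and was at least 5.13-fold higher there than at 10 weeks. Mean levels at 2 weeks were 3.18 for A_66_P131008, 3.56 for A_52_P10054, 4.56 for A_52_P588633 and 5.14 for A_66_P106948, each well above background on 1 or 2 of the 3 arrays. Their 10-week means were 4.01, 4.39, 3.72 and 5.32. At 10 weeks A_66_P131008 and A_66_P106948 were well above background on all 3 arrays and the others on 2. The intervals of their differences between 10 and 2 weeks all include 0, with the widest from -0.37 to 2.81 for A_52_P10054. Of 22 other settings, 1 each called A_66_P131008 and A_66_P106948 higher and A_52_P588633 lower (limma adjusted p = 0.00832, 0.0338 and 0.0151). No setting called A_52_P10054. Deposited values called A_51_P257951 and A_51_P173107 lower at 10 weeks (limma adjusted p = 0.0446 and 0.0454), and quantile normalization called A_51_P257951 (limma adjusted p = 0.0434).

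The last 6 members were well above background on every array. Probe A_51_P398260 had means of 8.47 ± 0.09 (SD, n = 3) before treatment, 6.23 ± 1.14 at 2 weeks and 4.92 ± 0.73 in tumours. The same means were 7.57 ± 0.73, 5.82 ± 0.35 and 4.40 ± 0.45 for A_55_P1970424 (SD, n = 3). For A_55_P2850037 they were 9.16 ± 0.14, 7.26 ± 0.50 and 6.14 ± 0.67 (SD, n = 3). In both of the latter every 10-week array lay below every 2-week array, with differences of -0.94 (limma adjusted p = 0.127) and -0.87 (limma adjusted p = 0.0802) that missed the threshold. Of the 23 other settings 4 called A_55_P1970424 (lowest limma adjusted p = 0.0326) and 5 called A_55_P2850037 (lowest limma adjusted p = 0.0186), each as lower at 10 weeks. A_51_P391159 had the tightest levels of the 6 after DSS, at 9.45 ± 0.24 (SD, n = 3) at 2 weeks and 9.21 ± 0.20 at 10 weeks, down from 11.29 ± 0.67. A_52_P329398 was at 12.15 ± 0.49 before treatment, 10.16 ± 1.00 at 2 weeks and 10.57 ± 0.37 in tumours (SD, n = 3). Its second 2-week array, at 11.31, was close to the lowest earlier array at 11.64.

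The sixth, A_55_P2087429, can be set beside probes that the rule did not take. Its values were 10.77, 11.55 and 10.17 before treatment and 10.698, 11.95 and 10.93 after AOM. They were 8.74, 9.25 and 9.71 at 2 weeks and 9.90, 8.19 and 8.33 at 10 weeks. Catalogue probe A_55_P2003915 is identical to it at 55 of 60 bases, and A_52_P422297 at 43 of the 47 bases of its best segment. A_55_P2003915 read 7.83, 8.85 and 8.93 before treatment and 7.42, 8.68 and 7.06 after AOM. It read 6.09, 6.89 and 6.51 at 2 weeks and 6.94, 6.97 and 4.04 at 10 weeks. Its later arrays all lay below the earlier ones, as the member's did, but its 1-week mean had dropped by 0.82, beyond the limit of 0.5. Its fall to 2 weeks, from 7.72 to 6.50, was also under the size limit.

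A_52_P422297 was more variable, with values of 6.43, 9.23 and 9.71 before treatment and 7.62, 7.89 and 4.14 at 10 weeks, and its groups overlapped. The 3 probes can bind overlapping sets of RNA and were read on the same arrays, so their likeness is a description. Custom-design probes matched 3 other members in part. CUST_OEV3_068153, like A_51_P391159, had a mean of 1.48 at 0 weeks and 1.73 at 10 weeks, and CUST_OEV3_084008, like A_51_P150489, stayed between 1.39 and 1.40. CUST_OEV3_011348, like A_55_P2722677, had means of 1.77 at 0 weeks and 3.42 at 10 weeks. On the opposite strand to the same member, CUST_OEV3_037795 had means of 8.66, 8.63, 8.66 and 8.79 over the 4 time points. Member A_51_P257951 was not well above background at 10-week values of 1.89 to 3.30. CUST_OEV3_068153 and CUST_OEV3_084008 had means below these values, and CUST_OEV3_011348 in or near their range. No course over time is therefore read from those low custom probes.

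Within a time point the members tended to share their lowest array. The rule did not use this order, but each array entered the means and limits that it did use. A low first 2-week array thus helped a probe to qualify, and without that array 16 of the 26 members met the rule. The order is therefore given as a description. The first 2-week array held the lowest of the 3 values in 24 of 26 members (92.3%) and the highest in 0, while it was lowest in 37.8% of the 20972 catalogue probes with a 0-week mean of at least 6. At 0 weeks the first array was lowest in 19 members (73.1%, against 30.5% of catalogue probes) and the second highest in 19 (73.1%, against 21.0%). Among the 1-week arrays the first was highest in 16 members (61.5%, against 16.4%). At 10 weeks the second array was lowest in 15 members (57.7%, against 26.9%). Under the percentile scaling the first 2-week array was again lowest in 24 members.

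The 2-week spread was larger among the members than over catalogue probes with a 0-week mean of at least 6. Their median SD was 0.251 before treatment, 0.386 after AOM, 0.778 at 2 weeks and 0.645 in tumours. That of the 20972 catalogue probes was 0.160, 0.188, 0.152 and 0.196 in the same order. These sets were not matched for level or for size of change. At 2 weeks the lowest member mean was 3.18, and 7 members were well above background on only some arrays. The highest member SD at 2 weeks was 2.24. Without the first 2-week array the rule held for 16 of the 26 members, and for no probe outside the set. It held for 17 probes without 1-week replicate 2 and for 39 without 0-week replicate 1. Leaving out 2-week replicate 2, which was highest in 15 members, raised the number of members called higher at 10 than at 2 weeks from 1 to 5. Over all tested probes 20.1% were called higher in that fit, so nothing is read from the count. Among the 5 were the 3 members that had fallen most, A_55_P2092633, A_66_P109060 and A_55_P2057189. Their differences were then 1.41, 2.71 and 1.15 on the log2 scale (limma adjusted p = 0.00799, 0.00833 and 0.0178), where with all arrays they were 0.21, 1.35 and 0.16 (limma adjusted p = 0.854, 0.286 and 0.865).

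The arrays had 48437 to 64594 probes well above background, or 33.3% to 44.4%, with the 3 highest numbers on the 10-week arrays. The number of arrays, 3 per group, limits the precision: the 95% interval of a member's difference between 10 and 2 weeks reached from 0.70 to 2.07 log2 units to either side, with a median of 1.05. A missed threshold in this comparison therefore does not show that levels at 2 and 10 weeks were alike.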

How the data were processed

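Colorectal RNA was read on 12 1-colour Cy3 arrays, 3 per time point. The deposited scanner files give each spot's intensity, made by the authors with Agilent Feature Extraction 10.7.1.1 per the file headers; the processed signal is background-subtracted. The deposited table of log2 values has the same quantiles in every column, so it was taken as quantile normalized; its normalization is not given in the sources used here. Each column correlated at 0.995 or more with that array's own processed signal (log2), and the table served to find and describe the members.

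For the test, outlier spots were dropped, spots of 1 probe averaged as log2, and each array's 75th percentile over 42343 probes well above background on all arrays subtracted. A probe counted as well above background where the majority of its kept spots were so flagged. Probes so on at least 3 arrays were tested. No tested spot was saturated. Group means of all 12 arrays were fitted with limma 3.58.1 in R 4.3.3 (lmFit, eBayes), with Benjamini-Hochberg adjustment and a threshold of 0.05. The fit was tested on simulated data. Array order, deviations, sequence likeness and the probes of like sequence were chosen after their values were seen.

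The members and lists were chosen with earlier results of these data known. The rule for names allowed 2 members without a gene; all 26 are named here because no member has a gene, which was decided after their values were seen. Colon pathway and cell type lists had no use without gene names.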

Additional observations from a re-analysis of the deposited data

How the results depend on the processing

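Falls among the members between 2 and 10 weeks numbered 4, where 7.56% of all tested probes were called lower. They numbered 9 with the percentile over all probes (22.1% of tested probes) and 8 with quantile normalization (11.3%). In the deposited values they numbered 9 (11.2%), and with no filter on dim probes 2 (2.57% of 145548 probes). With single arrays left out they ranged from 2 to 6, at 2 without 2-week replicate 2, 2-week replicate 3 or 10-week replicate 2. Over all fits with 1 array left out, 4.07% to 7.74% of tested probes were called lower. Rises numbered 1, where 23.4% of all tested probes were called higher. They numbered 2 with normexp (11.5%) and with only probes above background on all 12 arrays (20.3% of 42343 probes). Rises also numbered 2 with the 2-week and 10-week arrays only (24.1%) and with slide as a random block (29.7%, consensus correlation -0.0892). With single arrays left out the rises ranged from 1 to 5, and the share of tested probes called higher from 14.0% to 24.9%. All 4 falls and the rise were called under all 6 scalings. With the replicate block the counts stayed at 4 falls and 1 rise (7.07% and 22.2% of tested probes). Deviations of same-numbered arrays correlated above 0.1 in 1 of 18 pairs (correlations -0.0988 to 0.191). That shows no strong shared deviation, but it cannot tell whether same-numbered arrays were paired. Trend and robust fitting (8.8% lower and 23.8% higher) and cyclic loess (9.8% and 8.5%) also gave 4 falls and 1 rise.

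The rule held for 26 probes, for 17 with normexp (15 of them members), 52 with a fall of 1.0 and 12 with a fall of 2.0. Other scalings gave 26 to 30, and 15 members met it under every scaling. Leaving out an array, an alternative chosen after seeing the data, gave 16 (without 2-week replicate 1) to 39 probes (without 0-week replicate 1). It gave 17 without 1-week replicate 2. Criteria on 0-week level of 5 and 7 gave 33 and 21.

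Differences that missed the threshold changed sign for 5 members. With the percentile over all probes A_52_P329398 gave -0.11, A_55_P2057189 -0.26 and A_55_P2092633 -0.21. A_55_P2057189 also gave -0.13 with quantile normalization, -0.0066 with normexp and -0.13 in the deposited values. With single arrays left out A_52_P329398 ranged from -0.013 to 0.89, A_55_P2057189 from -0.38 to 1.15, A_55_P2092633 from -0.51 to 1.41, A_52_P588633 from -1.20 to 0.39 and A_55_P2011101 from -0.48 to 0.14. The cause was not tested. The gene list alternatives were not run, for want of gene names.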
